A study of Mus musculus and Homo sapiens with 15 samples.

Results

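Thymus tumours that progressed under arsenic trioxide (ATO) were compared with thymus tumours of mice given water, by RNA sequencing. Both groups had the W/W genotype, in which each p53 allele carries the R282W change, so no library came from a mouse with an unchanged p53 allele. The tissue of both was thymus with T-lymphoma, and animals were 150 days old. The water group held 3 libraries and the progressing group held 3, together 6 of the 15 samples of the study, and they were taken by their labels alone. Another 3 W/W thymus libraries of the same day, from ATO-treated animals with tumours in regression, shared the estimate of the spread, so 9 libraries entered the fit. Of 52340 genes in the table, 18119 had enough counts to be tested. The labels record neither dose nor duration of ATO, and since the treated group was also picked by its course, treatment and outcome cannot be told apart. They do not say that the libraries of a group came from separate animals, so p-values measure only the spread between these samples, which may not be that between animals.

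T cells mature in the thymus in ordered steps. Early thymocytes lack CD4 and CD8, rearrange their T-cell receptor genes with the Rag1 and Rag2 recombinase and the polymerase Dntt, and test the new beta chain with the Ptcra surrogate chain under Notch1 signalling. They then carry CD4 and CD8 together, are selected on MHC molecules shown by thymic epithelium and dendritic cells, switch the recombinase off and gain the homing and survival receptors of mature T cells. Most lymphomas that arise in the thymus of p53-deficient mice are clones of T-lineage cells. ATO is an arsenical used against acute promyelocytic leukaemia, where it acts on PML, and it can bind some p53 mutants that have lost their fold.

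Total counts of the compared libraries ran from 13189570 to 17550594. Water replicate 2 and progressing replicate 2 stood apart from the rest, with TMM scaling factors of 0.747 and 0.794 against 1.03 to 1.16 in the other 7 libraries, and progressing replicate 2 had 8.83% mitochondrial counts. The mitochondrial share also differed between the groups, at 4.70%, 8.83% and 4.86% in progressing against 2.55%, 3.79% and 2.75% in water tumours, without overlap, and its part in the results below was not tested. Counts for most gene lists are also given without both replicates 2. Levels below are CPM, counts scaled to a common library size after TMM correction, listed for replicates 1, 2 and 3 in that order. Log2 differences are progressing minus water, with standard error (SE), from the quasi-likelihood test of edgeR, with p-values adjusted by Benjamini-Hochberg over the 18119 genes, and a gene that passed has an adjusted p under 0.05. Of the genes tested, 2157 (11.9%) passed, 865 higher (4.77%) and 1292 lower (7.13%) in progressing tumours, and the median log2 difference over all genes was -0.0378. Without both replicates 2, 2895 genes passed, 1162 higher and 1733 lower. The count depended on the regressing libraries in the fit: with only the compared groups, 882 genes passed, 347 higher and 535 lower. For 703 genes (3.88%), 296 higher and 407 lower, the call was kept in each of the 6 fits that left out 1 of the compared libraries. The 3 progressing and 3 water libraries did not overlap in CPM for 4820 genes (26.6%).

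Trp53 itself, whose product is the mutant p53 of these mice, had 319, 284 and 231 CPM in water tumours. In progressing tumours it had 49.9, 153 and 57.8 CPM, so each progressing library lay below each water library. The log2 difference was -1.68 (SE 0.42, adjusted p = 0.0303). Both alleles being changed, these counts say nothing of a loss of the normal gene, and 3 of the 6 leave-one-out fits ended the call: those lacking water replicate 1, or progressing replicate 1 or 3. It also ended when the regressing libraries were dropped (adjusted p = 0.0707).

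The label of T-lymphoma was checked on the variable (V) segments of the T-cell receptor beta chain, of which a T-cell clone uses one or few. In the water tumours 1 segment took most of the beta V counts, a different one in each: Trbv12-1 with 93.6% (4503 of 4809 counts, 95% Wilson interval 92.9% to 94.3%), Trbv4 with 93.4% (1386 of 1484, 92.0% to 94.6%) and Trbv13-2 with 76.4% (1717 of 2246, 74.6% to 78.2%). In the progressing tumours the leading segments were Trbv31 with 94.3% (4756 of 5042, 93.7% to 94.9%), Trbv20 with 85.8% (3520 of 4103, 84.7% to 86.8%) and Trbv31 with 78.2% (1640 of 2096, 76.4% to 80.0%). So all 6 compared libraries had a dominant beta V segment, and no leading segment was shared between the groups. The regressing libraries had none: Trbv13-2 led there with 13.8%, 14.0% and 9.99%. These shares were described after the values were seen and the intervals cover counting error only.

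The alpha chain separated the groups in another way. Alpha V segments summed to 34.9, 125 and 205 CPM in water and to 41.6, 26 and 7.5 CPM in progressing tumours. A leading alpha segment took 46.8% (Trav3-3), 85.6% (Trav10n) and 38.1% (Trav10) of these counts in water. In progressing tumours the leading segment took 10.2%, 13% and 17.6%, and the regressing libraries had 4.29% to 7.12%. Thus the progressing tumours combined a dominant beta segment with no dominant alpha segment. Trac, the alpha constant gene, had 104, 359 and 354 CPM in water and 47.7, 79.4 and 321 CPM in progressing tumours (log2 difference -0.87, SE 0.69, adjusted p = 0.445). Many alpha V segments are near-identical copies, and how reads that match several copies were counted is not given in the sources used here, so their shares are uncertain.

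**Figure D1:**
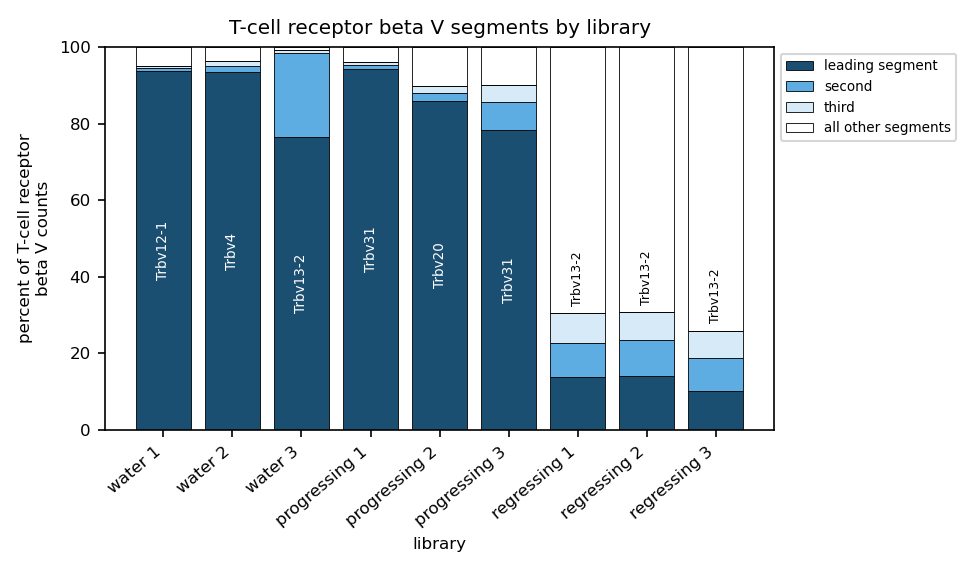
Share of the T-cell receptor beta V counts (percent, vertical axis) taken by the leading, the second and the third V segment and by all others in each of the 9 W/W libraries (horizontal axis). The leading segment, named on its bar, held 76.4% to 94.3% in the 6 water and progressing libraries and 9.99% to 14.0% in the 3 regressing libraries.

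Genes of the immature double-positive thymocyte were higher in progressing tumours. Of 16 members tested, 6 rose and 1 fell, with a median log2 difference of 1.98, against 4.77% higher and 7.13% lower among all genes tested. Without both replicates 2 the counts were 8 higher and 1 lower. The regressing libraries were higher still. Relative to the mean of the water libraries, the list median was 4.32, 4.35 and 3.48 there and 2.84, 2.32 and 2.23 in progressing tumours. Against regressing libraries, 0 members were called higher and 1 lower in progressing tumours. Among the rises was the machinery of receptor rearrangement. Rag1, the recombinase subunit that cuts DNA (chr2:101638282-101649501 in GRCm38), had 2.13, 2.29 and 0.617 CPM in water tumours and 591, 258 and 1386 CPM in progressing tumours. Its log2 difference was 8.80 (SE 0.89, adjusted p = 0.00107). An annotated gene on the same strand, B230118H07Rik, overlaps Rag1, and its reads may be shared. Rag2, the partner subunit, was 0.387, 0.0764 and 0 CPM in water and 76.9, 5.92 and 52.3 CPM in progressing tumours (8.10, SE 1.14, adjusted p = 0.00321). Dntt, which adds untemplated bases to the joins, had 1.16, 3.28 and 0.37 CPM in water against 791, 432 and 385 CPM (8.40, SE 0.81, adjusted p = 0.000897). All 3 had at most 3.28 CPM in each water tumour, and each was higher in every progressing tumour than in any water tumour. Rag2 was lowest in progressing replicate 2, at only 5.92 CPM.

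Ptcra, the surrogate alpha chain, had at most 0.129 CPM in water and 88.8, 2.03 and 29.9 CPM in progressing tumours. Its water libraries were all at 3 counts or fewer, so the fold is a lower bound: it was at least 199-fold higher (adjusted p = 0.00493, by limma-voom 0.0635). Arpp21, a phosphoprotein gene used as a marker of double-positive thymocytes, had 0.903, 0.687 and 0.309 CPM in water against 243, 225 and 178 CPM. That log2 difference of 8.40 (SE 0.50) had the smallest adjusted p among rises that met the naming rule (7.91e-05). Cd4, the coreceptor for MHC class II, had 87.2, 47.3 and 42.8 CPM in water and 470, 255 and 161 CPM in progressing tumours (2.32, SE 0.48, adjusted p = 0.0141). The CD8 chains were also above water on average without passing: Cd8a had a log2 difference of 1.99 (SE 0.59, adjusted p = 0.0519, by limma-voom 0.0350) and Cd8b1 1.56 (SE 1.06, adjusted p = 0.363). Tox, a nuclear factor needed for the CD4 lineage, was the member that fell, from 71.4, 18 and 97.5 CPM to 8.14, 7.52 and 12.1 CPM (-2.75, SE 0.53, adjusted p = 0.0113). In bulk tissue, more cells of a type and more RNA per cell cannot be told apart, and the same holds for every fall below.

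Genes of mature and emigrating T cells moved the other way: 9 of 11 fell, none rose, and the median log2 difference was -4.13. Without both replicates 2, 8 fell. Cd52, a small surface glycoprotein of mature lymphocytes, had 649, 753 and 485 CPM in water and 16.0, 50 and 20.6 CPM in progressing tumours (-4.45, SE 0.49, adjusted p = 0.00134). Ccr7, the receptor that guides positively selected thymocytes to the medulla, had 77.4, 66.2 and 26.9 CPM against 1.42, 5.33 and 3.01 CPM (-4.13, SE 0.59, adjusted p = 0.00342). For both of these the highest progressing tumour stayed below the lowest water tumour. Il7r, the receptor for the survival cytokine interleukin 7, differed within the water group, with 935, 14.0 and 555 CPM, against 9.8, 2.2 and 2.72 CPM in progressing tumours (-6.66, SE 1.28, adjusted p = 0.0111). The fall extended to the transcription factor Klf2 (-3.32, SE 0.74, adjusted p = 0.0194), its target S1pr1, the exit receptor (-2.32, SE 0.64, adjusted p = 0.0410), and the early activation marker Cd69 (-4.35, SE 1.00, adjusted p = 0.0216). Without progressing replicate 3 only 4 members of this list passed, and S1pr1 kept its call in only 1 of the 6 fits that left out a library.

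**Figure D2:**
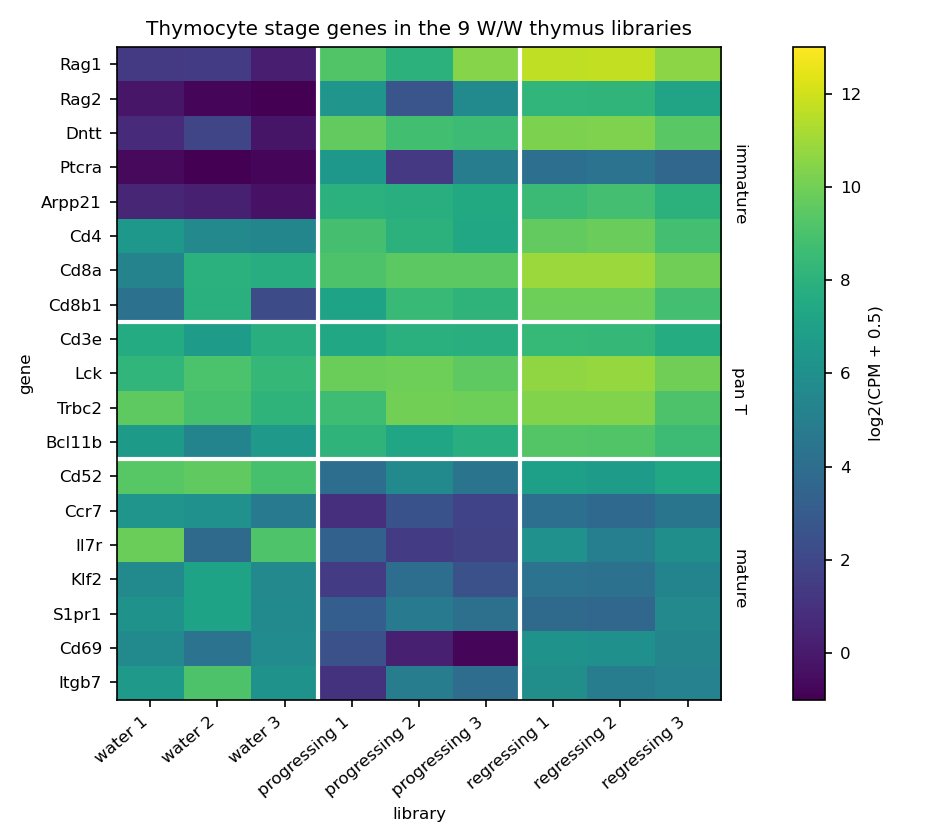
Level of 19 thymocyte stage genes (rows) in the 9 W/W libraries (columns), coloured by log2(CPM + 0.5). Rag1, Dntt and Arpp21 are dark in the 3 water libraries and lighter in the 3 progressing ones, while Cd52, Ccr7 and Cd69 show the reverse. Rag2 is also dark in the water libraries, and stays darker in progressing replicate 2 than in the other progressing libraries.

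The general T-lineage genes changed less as a list: 3 of 20 rose and 4 fell, with a median of 0.45, and without both replicates 2, 5 rose and 4 fell with a median of -0.09. Cd3e, an invariant chain of the receptor complex, had 194, 108 and 227 CPM in water and 167, 232 and 224 CPM in progressing tumours (0.24, SE 0.34, adjusted p = 0.705), so this T-cell marker was present at similar levels in all 6 libraries. Lat, the adaptor that links the receptor to its signalling cascade, rose from 148, 303 and 157 CPM to 668, 1091 and 680 CPM (2.01, SE 0.42, adjusted p = 0.0148), and the signalling chain Cd247 (1.44, SE 0.36, adjusted p = 0.0282) and the lineage factor Bcl11b (1.51, SE 0.40, adjusted p = 0.0369) rose with it. Cd5, a brake on receptor signalling whose level follows signal strength in thymocytes, fell from 143, 109 and 120 CPM to 12.8, 4.73 and 13.5 CPM (-3.58, SE 0.42, adjusted p = 0.00157). The adhesion receptor Cd2 fell as well (-2.99, SE 0.49, adjusted p = 0.00613). Cd247 and Bcl11b kept their calls in only 1 of 6 fits that left out a library, whereas Cd5 and Cd2 kept theirs in all 6.

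Progressing tumours were not simply richer in every early gene. Of 12 genes of the progenitor and double-negative stages, 6 fell and none rose (median -1.46), and 4 fell without both replicates 2. Lmo2, a T-cell leukaemia oncogene and progenitor factor, went from 69.3, 42.3 and 76.2 CPM to 6.78, 13.4 and 3.46 CPM (-2.99, SE 0.56, adjusted p = 0.00983). Bcl11a, active in progenitors and in B cells, went from 40.7, 68.5 and 3.03 CPM to 0.37, 1.18 and 0.294 CPM (-5.93, SE 1.06, adjusted p = 0.00821). The growth factor receptor Kit and the interleukin 2 receptor chain Il2ra, which mark the double-negative steps, had log2 differences of -0.29 (SE 0.69, adjusted p = 0.820) and -0.72 (SE 0.63, adjusted p = 0.493). Some members of this list, such as Bcl11a and Mef2c, are also active in B cells, whose 18 of 22 markers were lower. Their part in this result was not tested.

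Notch1, the receptor that commits precursors to the T lineage and is often mutated in T-cell leukaemia, rose from 50.2, 16.2 and 36.9 CPM to 517, 154 and 702 CPM (3.73, SE 0.59, adjusted p = 0.00515). Against the regressing libraries, whose levels were 110, 122 and 99.6 CPM, progressing tumours were higher as well (2.05, adjusted p = 0.0374). Of 17 genes of the Notch pathway 2 rose and 1 fell (2 and 2 without both replicates 2). Notch3 had 22, 17 and 30.9 CPM in water against 219, 41.8 and 68.4 CPM (2.24, SE 0.55, adjusted p = 0.0279), a call that was lost without any water library or progressing replicate 1. The classical target Hes1 had 5.09, 5.80 and 7.84 CPM against 9, 5.07 and 16.0 CPM (0.68, SE 0.56, adjusted p = 0.463), and the target Dtx1 had a log2 difference of 1.99 (SE 0.83, adjusted p = 0.145). The target Hes5 was the member that fell, from 0.967, 3.28 and 0.556 CPM to at most 0.0845 CPM, at least 7.29-fold lower (adjusted p = 0.0217), a call lost without progressing replicate 1 or 3.

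Of 21 oncogenes and suppressors of T-cell leukaemia, 1 rose and 2 fell, and without both replicates 2, 1 rose and 6 fell. Among all genes tested 4.77% were higher and 7.13% lower, so the list as a whole stood near these shares, and its called members are described singly. Runx1, a core T-lineage factor, rose from 56.4, 41.7 and 47.1 CPM to 237, 159 and 139 CPM (1.88, SE 0.31, adjusted p = 0.00626). Ccnd2, a D-type cyclin that drives entry into the cell cycle, fell from 279, 215 and 371 CPM to 4.62, 4.06 and 7.65 CPM (-5.73, SE 0.46, adjusted p = 0.000467), with the groups far apart. Myc, the growth-promoting factor, had 200, 996 and 171 CPM in water and 70.9, 87.8 and 35.3 CPM in progressing tumours (-2.82, SE 0.68, adjusted p = 0.0262). Water replicate 2 held the highest Myc level, and the call was lost without each of the progressing libraries in turn.

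Outside these lists, the largest rises of protein-coding genes that met the naming rule included Gm525, a gene of uncharted function, with 1.55, 0.0764 and 0.37 CPM in water and 407, 968 and 507 CPM in progressing tumours (9.84, SE 0.89, adjusted p = 0.000645). Gfra1, a receptor for the growth factor GDNF, had 0.387, 0.764 and 0.494 CPM against 145, 130 and 488 CPM (8.85, SE 0.69, adjusted p = 0.00046). Dazl, an RNA-binding protein known from germ cells, had 0.129, 0.305 and 0.185 CPM against 30.4, 26.6 and 30 CPM (7.09, SE 0.59, adjusted p = 0.000549). These rises were shared by all 3 progressing tumours. The regressing libraries had 14.5 to 23.2 CPM of Gm525, 12.5 to 17.3 CPM of Gfra1 and 0.124 to 0.212 CPM of Dazl. Progressing tumours were higher than regressing ones for all 3, with log2 differences of 4.99 (adjusted p = 0.00920), 4.08 (adjusted p = 0.00743) and 7.29 (adjusted p = 0.00172). For background, 2289 genes (12.6%) passed in progressing against regressing tumours, 1120 higher (6.18%) and 1169 lower (6.45%). Both comparisons use the same progressing libraries. Other genes of the rule included Greb1 (at least 152-fold higher), Pde6a (at least 67.3-fold), H2-T3 (log2 difference 8.25), Gm8909 (7.92), Syt13 (6.24) and Mboat2 (6.16). The folds are bounds for the group mean and not for each tumour: Greb1 had 34.6, 2.45 and 55.1 CPM in progressing tumours and Pde6a 18.3, 6.34 and 16.2 CPM. H2-T3 and Gm8909 belong to the family of MHC class I-like genes, where near-identical copies make counts uncertain.

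Among the falls, Gimap4 and Gimap3, GTPases that support the survival of lymphocytes, were far lower. Gimap4 went from 728, 345 and 548 CPM to 3.02, 2.87 and 4.56 CPM (-7.27, SE 0.54, adjusted p = 0.000387) and Gimap3 from 534, 101 and 271 CPM to 0.987, 1.69 and 0.956 CPM (-7.96, SE 0.72, adjusted p = 0.000645). Pik3cd, the catalytic subunit of the PI3-kinase of leukocytes, went from 314, 304 and 234 CPM to 31.6, 31.7 and 32.9 CPM (-3.15, SE 0.27, adjusted p = 0.000595). It varied little within either group. Clec2d, a ligand of the NK receptor Klrb1, fell by 3.31 on the log2 scale (SE 0.31, adjusted p = 0.000711), Lysmd2 by 5.45 (SE 0.55, adjusted p = 0.00107) and Ms4a4b, a membrane protein of T cells, by 7.72 (SE 0.93, adjusted p = 0.00169). Kremen2, a receptor that damps Wnt signalling, was at least 69.5-fold lower (adjusted p = 0.00274), and Ccr6, a chemokine receptor of B cells and some T cells, at least 65.5-fold lower (adjusted p = 0.0145). Progressing tumours had 0 counts of Ccr6, while water replicate 1 held 38.9 CPM and the other 2 water tumours about 2 CPM each.

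Interferon-stimulated genes fell together. Of 41 tested, 25 were lower and none higher, with a median of -2.21, and 17 kept the call in each of the 6 fits that left out a library. Without both replicates 2, 28 were lower. Interferons act through receptors and JAK kinases on transcription factors such as the complex that contains Irf9, which binds a repeated GAAA element in the promoters of these genes. Oasl2, an antiviral protein related to the oligoadenylate synthetases, had 51.0, 29.2 and 129 CPM in water and 5.24, 5.92 and 2.35 CPM in progressing tumours (-3.95, SE 0.62, adjusted p = 0.00512). Xaf1, which promotes cell death, had 46.4, 22.5 and 58.7 CPM against 5.43, 5.92 and 2.5 CPM (-3.20, SE 0.53, adjusted p = 0.00616). Both were several-fold lower in each progressing tumour than in any water tumour.

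The promoters of 4 of these genes are printed because they show where that element lies. They are the 4 stimulated genes of smallest adjusted p whose RefSeq promoter (build GRCm38.p6, from 250 bases before to 50 after the gene start) holds GAAA, then 2 bases of any kind, then GAAA, on either strand. Each is written 5′ to 3′ in the direction of its gene, with the element in capitals. It appears as TTTC, 2 bases, TTTC when it lies on the other strand, and in Irgm1 and Oas1a 2 overlapping matches form 1 stretch. Irgm1, a GTPase of intracellular defence, is at chr11:48871371-48871670 on the minus strand. Gbp2, a guanylate-binding protein, is at chr3:142620413-142620712 on the plus strand. Trim30a, a ubiquitin ligase, is at chr7:104465144-104465443 on the minus strand, one of 2 promoters the table gives for it, and Oas1a, an oligoadenylate synthetase, is at chr5:120907476-120907775 on the minus strand.
Irgm1: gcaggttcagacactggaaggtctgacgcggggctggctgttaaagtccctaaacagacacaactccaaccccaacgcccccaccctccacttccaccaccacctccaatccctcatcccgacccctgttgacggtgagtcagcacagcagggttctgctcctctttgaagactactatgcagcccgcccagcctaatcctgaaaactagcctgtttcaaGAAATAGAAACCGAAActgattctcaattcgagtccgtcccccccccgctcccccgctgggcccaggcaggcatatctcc
Gbp2: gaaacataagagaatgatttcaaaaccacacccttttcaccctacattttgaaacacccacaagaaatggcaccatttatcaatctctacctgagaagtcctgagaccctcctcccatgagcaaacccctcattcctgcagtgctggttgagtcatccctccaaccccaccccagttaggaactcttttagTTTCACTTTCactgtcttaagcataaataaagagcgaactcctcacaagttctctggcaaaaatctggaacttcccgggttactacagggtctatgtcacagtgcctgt
Trim30a: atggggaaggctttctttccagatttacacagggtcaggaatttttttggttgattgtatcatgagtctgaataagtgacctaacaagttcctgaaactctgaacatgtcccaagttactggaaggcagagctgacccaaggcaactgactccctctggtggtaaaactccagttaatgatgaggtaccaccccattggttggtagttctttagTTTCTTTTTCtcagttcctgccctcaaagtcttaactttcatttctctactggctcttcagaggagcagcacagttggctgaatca
Oas1a: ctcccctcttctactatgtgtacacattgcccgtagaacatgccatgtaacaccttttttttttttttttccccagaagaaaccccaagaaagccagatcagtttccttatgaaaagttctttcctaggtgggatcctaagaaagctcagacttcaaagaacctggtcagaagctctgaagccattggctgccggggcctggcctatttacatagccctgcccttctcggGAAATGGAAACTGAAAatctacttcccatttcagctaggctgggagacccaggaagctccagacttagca
The first base of the element lies 30, 59, 36 and 20 bases before the gene start, in the order printed.

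All 4 genes were lower in each progressing tumour than in any water tumour, but they were picked for a small adjusted p in this comparison, so this is no test. Irgm1 had 119, 88.4 and 133 CPM in water against 33.7, 22 and 17.5 CPM (-2.21, SE 0.37, adjusted p = 0.00620), and Gbp2 had 59.6, 116 and 52.2 CPM against 14.4, 5.24 and 11.0 CPM (-2.89, SE 0.49, adjusted p = 0.00658). Trim30a had 159, 71.0 and 151 CPM against 23.4, 9.72 and 5.07 CPM (-3.31, SE 0.56, adjusted p = 0.00693). Oas1a had 49.8, 18.3 and 72.5 CPM against 2.10, 4.48 and 1.32 CPM (-4.16, SE 0.71, adjusted p = 0.00716). The element was found in the promoters of 20 of 30 stimulated genes with a RefSeq entry (66.7%), against 1079 of 27025 RefSeq genes (3.99%) and 1131 of 32851 promoters of the same length (3.44%). It did not separate members by their change: 12 of 19 that fell held it (63.2%), and so did 8 of 11 that did not pass (72.7%). Over all genes with a promoter, it was in 73 of 905 that fell (8.07%) and in 24 of 609 that rose (3.94%). A match describes the letters in the window and is not a measured binding site.

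Among the signalling parts of the pathway, Irf9 fell from 86.2, 36.8 and 77.2 CPM to 18.6, 19.7 and 12.6 CPM (-1.98, SE 0.38, adjusted p = 0.0106). Stat2 (-0.32, SE 0.40, adjusted p = 0.645) and Irf1 (0.51, SE 0.58, adjusted p = 0.609) did not pass, nor did the receptor chains Ifnar1 (0.09, SE 0.32, adjusted p = 0.879) and Ifngr1 (0.27, SE 0.59, adjusted p = 0.805). Of 18 ligands, receptors, kinases and sensors tested, 6 fell and none rose, with the same counts without both replicates 2. They included 1 receptor gene, Ifnlr1, for interferon lambda, from 6.71, 0.611 and 5.62 CPM to 0.37, 0.0845 and 0.294 CPM (-4.04, SE 0.94, adjusted p = 0.0223, by limma-voom 0.0849), and the receptor kinase Tyk2 (-1.19, SE 0.27, adjusted p = 0.0199). Sting1, the adaptor of cytosolic DNA sensing, fell from 87.3, 89.5 and 102 CPM to 16.2, 21.2 and 16.2 CPM (-2.38, SE 0.32, adjusted p = 0.00261). Tlr9, an endosomal DNA sensor of B cells and plasmacytoid dendritic cells, fell by 4.72 (SE 0.89, adjusted p = 0.0102). The master regulator Irf7 (-3.0, SE 0.77, adjusted p = 0.0325) and the ubiquitin-like Isg15 (-2.39, SE 0.66, adjusted p = 0.0403) kept their calls in only 2 of the 6 fits that left out a library. Against regressing tumours 23 of the 41 stimulated genes were lower in progressing tumours and none was higher.

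Antigen presentation was lower for both MHC classes. Of 22 class I genes 13 fell and none rose (median -1.47, and 19 fell without both replicates 2). H2-K1, a classical class I heavy chain (chr17:33996017-34000347), had 1848, 1317 and 2211 CPM in water and 127, 388 and 76.5 CPM in progressing tumours (-3.19, SE 0.59, adjusted p = 0.00977). H2-D1, the other, had 1368, 1522 and 1450 CPM against 173, 388 and 121 CPM (-2.67, SE 0.46, adjusted p = 0.00715). Reads of these paralogues can be confused with each other, so the split between them is uncertain. Tapbp and Tap1, which load and import peptides, fell by 2.58 (SE 0.42, adjusted p = 0.00574) and 1.54 (SE 0.28, adjusted p = 0.00858), and H2-M3 by 2.27 (SE 0.32, adjusted p = 0.00318). B2m, the light chain, had 1663, 1538 and 2064 CPM against 575, 1019 and 391 CPM (-1.41, SE 0.41, adjusted p = 0.0479), and its call was lost in 4 of the 6 fits that left out a library. Progressing replicate 2 was the highest of its group for H2-K1, H2-D1 and B2m.

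Of 11 class II genes 10 fell and none rose (median -3.04, and 11 fell without both replicates 2). H2-Aa, a class II chain, had 1031, 1374 and 868 CPM in water and 87.9, 210 and 64.4 CPM in progressing tumours (-3.18, SE 0.49, adjusted p = 0.00471). H2-DMb2 and H2-Oa, which edit the peptides bound, fell by 5.28 (SE 0.61, adjusted p = 0.00151) and 2.30 (SE 0.34, adjusted p = 0.00415). Ciita, the switch of the class, had 113, 68.3 and 39.9 CPM against 11.6, 1.01 and 10.8 CPM (-3.24, SE 0.73, adjusted p = 0.0202), and lost its call without water replicate 1 or progressing replicate 3. Class II is carried by B cells, dendritic cells and thymic epithelium, and markers of each were lower in progressing tumours. The summed level of the B-cell list ran from 1731 to 13789 CPM in water and from 194 to 248 CPM in progressing tumours. That of the dendritic list ran from 98.0 to 219 CPM against 7.28 to 28.1 CPM, and that of the epithelial list from 377 to 2090 CPM against 246 to 631 CPM, with an overlap. No member of these 3 lists was at 0 in all progressing libraries. Their part in the class II result was not tested.

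B-cell genes had the lowest median of the 48 lists, -5.85: 18 of 22 were lower and none higher, and 19 were lower without both replicates 2. Ms4a1, the CD20 surface protein, had 216, 857 and 9.82 CPM in water and 0, 0.592 and 0.147 CPM in progressing tumours (-10.59, SE 1.65, adjusted p = 0.00498). Pax5, the factor that commits cells to the B lineage, was at least 411-fold lower (adjusted p = 0.00321), and the IgM receptor Fcmr fell by 8.03 (SE 1.28, adjusted p = 0.00544). Water replicate 3 had far less of each than the other 2 water tumours. By limma-voom 8 members of the list fell, and Ms4a1 (adjusted p = 0.111), Pax5 (0.0973) and Fcmr (0.115) did not pass. Immunoglobulin genes behaved alike: Ighm, the heavy chain of IgM, had 1815, 4137 and 895 CPM in water against 154, 59.6 and 110 CPM (-4.40, SE 0.62, adjusted p = 0.00323), and Igkc, the kappa chain, fell by 7.05 (SE 1.01, adjusted p = 0.00336). Heavy V segments summed to 513, 495 and 149 CPM in water and to 4.38, 7.78 and 3.16 CPM in progressing tumours. In water replicate 2 a single segment, Ighv12-3, took 96.4% of these counts, and Igkv19-93 and Igkv4-91 took 59.6% and 38.1% of its kappa V counts, whereas the leading heavy segment had 6.24% in water replicate 1 and 23.6% in replicate 3. Water replicate 2 thus held a dominant immunoglobulin rearrangement beside its dominant T-cell receptor beta segment.

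Genes of cytotoxic T and NK cells fell in 16 of 21 cases, with none higher and a median of -5.10, and without both replicates 2 there were 14 lower and 1 higher. Klrc1, an NK receptor, had 4.84, 69.6 and 3.52 CPM in water and at most 0.0617 CPM in progressing tumours, at least 118-fold lower (adjusted p = 0.00759). Nkg7, a granule protein, had 14.8, 216 and 16.0 CPM against 0.0617, 0.845 and 0.0735 CPM (-8.03, SE 1.38, adjusted p = 0.00724), and the granule protease Ctsw had 44.3, 73.2 and 98.4 CPM against 2.22, 3.13 and 0.588 CPM (-5.18, SE 0.61, adjusted p = 0.00158). Water replicate 2 was the highest library for Klrc1 and Nkg7 but not for Ctsw. The killing effectors Gzma (-1.74, SE 1.35, adjusted p = 0.434) and Prf1 (-1.08, SE 1.07, adjusted p = 0.553) did not pass. Ifng, which encodes interferon gamma, had 0.709, 3.05 and 1.61 CPM in water and 0 counts in progressing tumours, at least 8.15-fold lower (adjusted p = 0.0183, lost without progressing replicate 3).

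Checkpoint and regulatory T-cell genes fell in 5 of 15 cases (7 without both replicates 2). Ikzf2, a factor of regulatory T cells, fell from 381, 124 and 419 CPM to 30.8, 27.6 and 21.5 CPM (-3.53, SE 0.46, adjusted p = 0.00247), and Pdcd1, the PD-1 receptor, from 22.4, 89.3 and 33 CPM to 3.45, 1.10 and 3.31 CPM (-4.19, SE 0.68, adjusted p = 0.00583). Icos, a costimulator of activated T cells, had 1056, 4.35 and 574 CPM in water and 3.51, 4.82 and 1.91 CPM in progressing tumours (-7.32, SE 1.49, adjusted p = 0.0134). Of the 6 libraries, water replicates 1 and 3 alone had high Icos, as they were for Il7r. Foxp3, which defines regulatory T cells, was near the detection limit, with 0.309 to 2.32 CPM in water and 0.0845 to 0.370 CPM in progressing tumours (-2.28, SE 0.94, adjusted p = 0.138). Of 10 genes of gamma-delta and innate-like T cells 2 fell (5 without both replicates 2), the factor Maf (-3.48, adjusted p = 0.00716) and Trgc2, a gamma constant gene that had 175, 6.19 and 207 CPM in water and 12, 5.92 and 19.6 CPM in progressing tumours (-3.37, adjusted p = 0.0413).

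Markers of thymic epithelium were lower in progressing tumours, in 12 of 20 cases with none higher (median -3.04, and 13 lower without both replicates 2). Trp63, the p53 relative that maintains epithelium, had 4.32, 26.9 and 29.2 CPM in water against 0.987, 1.10 and 1.54 CPM (-4.05, SE 0.65, adjusted p = 0.00565). The keratin Krt5 had 35.6, 83.1 and 437 CPM against 5.92, 9.38 and 2.06 CPM (-5.00, SE 0.95, adjusted p = 0.0107). Foxn1, the master factor of this epithelium (-4.49, SE 1.14, adjusted p = 0.0305), and Aire, which drives display of tissue antigens (-4.53, SE 1.32, adjusted p = 0.0499), lost their calls in 4 and 5 of the 6 fits that left out a library. Psmb11, the cortical proteasome subunit, was low in both groups, with 0.258 to 0.993 CPM in water, 0.185 to 1.52 CPM in progressing tumours and 56.1 to 71.4 CPM in regressing libraries. Psmb11 was thus near the floor in all 6 compared libraries. Ccl21a, a medullary chemokine, fell by 7.51 (SE 1.46, adjusted p = 0.0114, by limma-voom 0.154), from 5.42, 370 and 469 CPM in water to 0.294 to 2.34 CPM. This list rests on few libraries: 5 members passed when the regressing libraries were dropped, 3 by limma-voom and 5 in the lowest of the fits that left out a library.

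Dendritic-cell genes fell in 6 of 10 cases, and in 6 without both replicates 2. Ccl22, a chemokine that draws regulatory T cells, had 106, 21.9 and 40.8 CPM in water against 0.247, 2.28 and 0.368 CPM (-5.89, SE 0.93, adjusted p = 0.00516), and Xcr1, a receptor of cross-presenting dendritic cells, had 7.03, 3.36 and 8.95 CPM against 0.247, 0.507 and 0.515 CPM (-3.92, SE 0.68, adjusted p = 0.00745). Macrophage genes fell in 3 of 22 cases (4 without both replicates 2), with Adgre1, the F4/80 antigen, at 5.61 to 36.0 CPM in water and 8.38 to 31.2 CPM in progressing tumours. So the macrophage list had a share of falls nearer to the background of 7.13% than the other lists of antigen-presenting cells. Genes of fibroblasts (1 of 19 higher), endothelium (0 of 18), neutrophils (0 of 10), adipocytes (0 of 14), muscle (0 of 10) and red cells (0 of 6) gave few or no calls by edgeR. In the 5 lists without a call, 1, 2, 4, 2 and 0 members had an unadjusted p under 0.05, limma-voom called none, and DESeq2 called 1, 2, 2, 1 and 0. With both replicates 2 left out, 2 red-cell genes were called higher and 1 muscle gene lower. Adipocyte genes summed to 1683 CPM in progressing replicate 2 and to 100 to 280 CPM in the other 5 compared libraries.

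**Figure D3:**
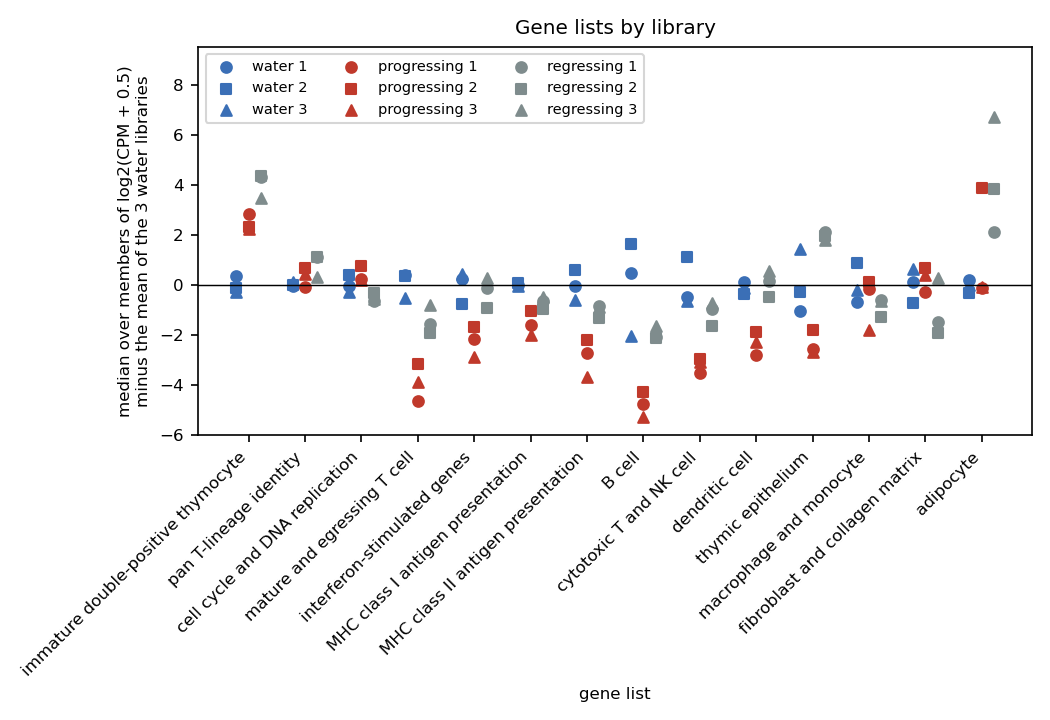
Median over the members of 14 gene lists (horizontal axis) of log2(CPM + 0.5) minus the mean of the 3 water libraries (vertical axis), 1 point per library. The progressing points lie between 2.23 and 2.84 for the double-positive list and between -5.31 and -4.30 for B cells, and progressing replicate 2 stands at 3.85 for adipocytes.

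Chemokine genes fell in 8 of 24 cases and cytokine genes in 6 of 17, with 1 higher. The counts with both replicates 2 left out were 11 chemokine and 8 cytokine genes lower and 1 cytokine gene higher. Cxcr5, the receptor that brings B cells to follicles, fell by 6.2 (SE 1.04, adjusted p = 0.00648), Cxcr6, a receptor of effector T cells, by 8.03 (SE 1.37, adjusted p = 0.00693, by limma-voom 0.115) and Ccl19, a ligand of Ccr7, by 5.58 (SE 1.06, adjusted p = 0.0107). Ccl19 and its receptor Ccr7 were therefore both lower. Il18r1, the interleukin 18 receptor, had 45.1, 49.4 and 114 CPM in water and 0.185, 0.930 and 0.735 CPM in progressing tumours (-6.83, SE 0.80, adjusted p = 0.00157). Il12rb2, an interleukin 12 receptor chain, was the cytokine gene that rose (2.85, SE 0.59, adjusted p = 0.0143, lost without progressing replicate 3).

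Of 21 genes of T-cell receptor signalling 5 fell and none rose (7 fell without both replicates 2). Csk, the kinase that restrains Lck, fell from 373, 585 and 302 CPM to 128, 133 and 98.2 CPM (-1.81, SE 0.32, adjusted p = 0.00835), and Ptpn6, an inhibitory phosphatase, by 2.26 (SE 0.44, adjusted p = 0.0111). Zap70, the kinase at the receptor, had a log2 difference of -0.46 (SE 0.27, adjusted p = 0.293). The members that fell include negative as well as positive regulators. Among immediate early genes 2 of 16 fell (6 without both replicates 2), among them Egr3, which receptor signals induce, from 84.8, 13.2 and 81.6 CPM to 2.10, 0.761 and 0.441 CPM (-5.74, SE 0.95, adjusted p = 0.00621). Nr4a1, another early target, had 46.2, 40.4 and 47.7 CPM in water and 7.71, 40.2 and 13.4 CPM in progressing tumours (-1.13, SE 0.51, adjusted p = 0.170).

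**Figure D4:**
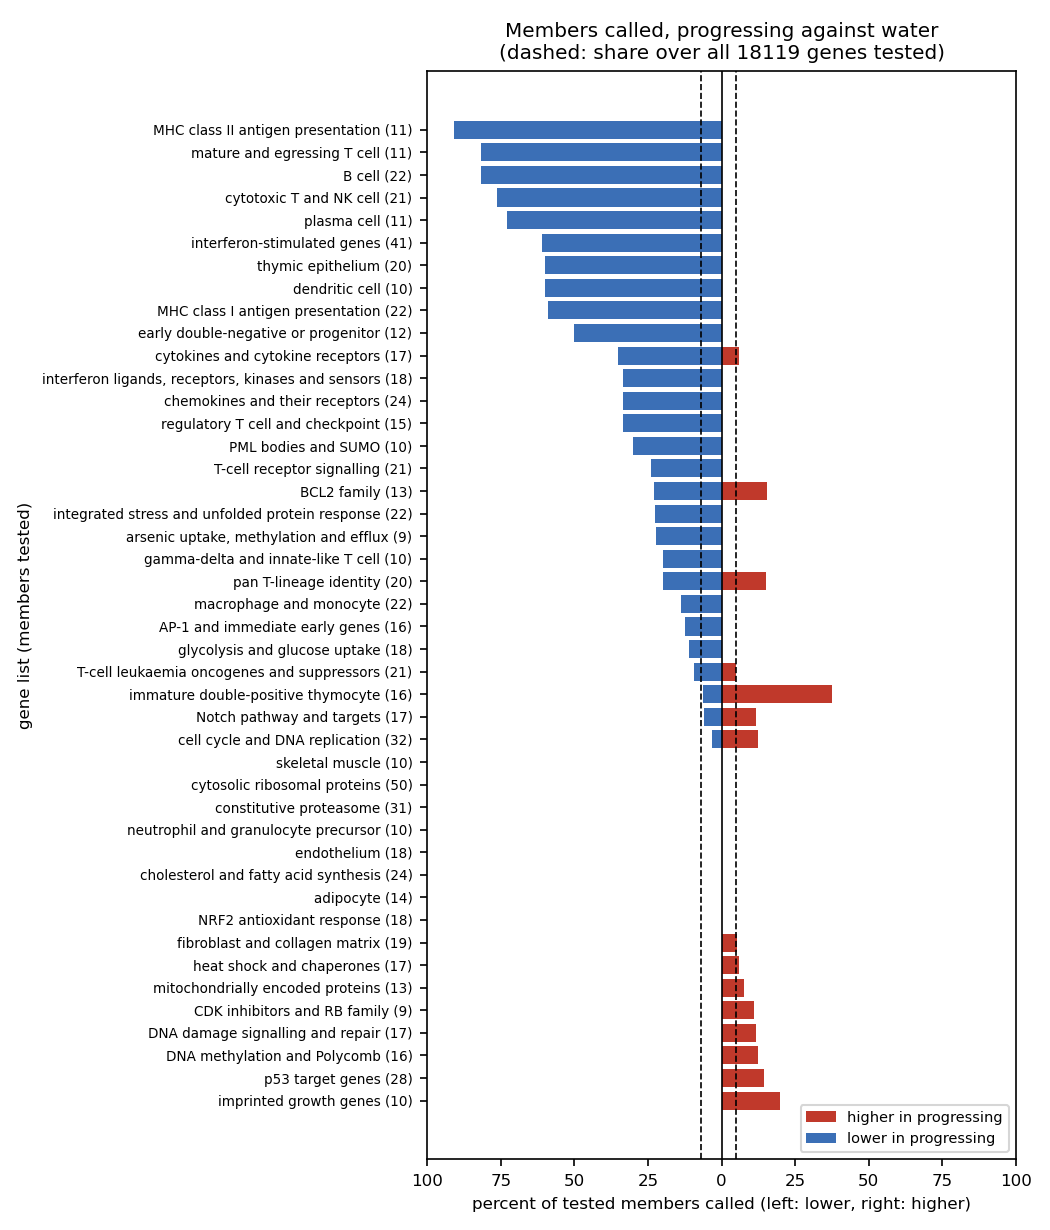
Share of tested members (percent, horizontal axis) that fell (left) or rose (right) in progressing against water tumours, for each gene list with at least 9 members tested (vertical axis, members in brackets), with the shares over all 18119 genes as dashed lines. MHC class II, mature T-cell and B-cell lists extend farthest to the left and the double-positive list farthest to the right.

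Genes that wild-type p53 is known to switch on rose in 4 of 28 cases and fell in none, with a median of 0.46, and 6 rose without both replicates 2. The share of 14.3% stands beside 4.77% of all genes. Trp53inp1, a stress protein that promotes cell death and autophagy, had 128, 200 and 185 CPM in water and 656, 1764 and 663 CPM in progressing tumours (2.59, SE 0.48, adjusted p = 0.00998). Polk, a DNA polymerase that bypasses lesions, had 14.7, 14.9 and 10.7 CPM against 30.3, 71.3 and 78.4 CPM (2.16, SE 0.41, adjusted p = 0.0107). Gadd45a, a growth arrest gene (2.10, SE 0.53, adjusted p = 0.0305), and Perp, a membrane protein (2.33, SE 0.65, adjusted p = 0.0426), kept their calls in only 3 of 6 fits that left out a library. The best known targets, Cdkn1a and Mdm2, did not pass by edgeR or by limma-voom (adjusted p by limma-voom 0.113 and 0.152), but did by DESeq2. With only the compared groups in the edgeR fit they did not pass either (adjusted p = 0.0799 and 0.145). Cdkn1a, the p21 inhibitor of the cell cycle, had 8.45, 23.3 and 16.0 CPM in water and 26.9, 136 and 49.0 CPM in progressing tumours (2.15, SE 0.77, adjusted p = 0.0936, by DESeq2 0.0248), and Mdm2, the ligase that degrades p53, had 102, 93.2 and 81.9 CPM against 120, 539 and 147 CPM (1.54, SE 0.52, adjusted p = 0.0771, by DESeq2 0.0423). For both, the groups did not overlap and progressing replicate 2 was the highest library. Without both replicates 2 the differences were 1.64 (adjusted p = 0.209) and 0.55 (adjusted p = 0.240). The death effectors Bax (0.35, SE 0.50, adjusted p = 0.696) and Bbc3 (0.43, SE 0.94, adjusted p = 0.806) were not called.

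Of 13 BCL2-family genes 2 rose and 3 fell, and without both replicates 2, 1 rose and 3 fell. The guardian Bcl2 fell from 43.7, 84.1 and 22 CPM to 8.94, 7.10 and 7.06 CPM (-2.69, SE 0.46, adjusted p = 0.00719). Bcl2a1d and Bcl2a1b, near-identical copies of another guardian whose counts may be split between them, fell by 4.28 (SE 0.63, adjusted p = 0.00400) and 2.94 (SE 0.62, adjusted p = 0.0158). The killers Bcl2l11, known as Bim (2.01, SE 0.47, adjusted p = 0.0232), and Bmf (2.48, SE 0.65, adjusted p = 0.0345) rose, and each kept its call in only 2 of 6 fits that left out a library. The members that fell were guardians and those that rose were killers, while the guardian Mcl1 (-0.92, SE 0.41, adjusted p = 0.162) and 7 other members did not pass.

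For genes related to arsenic, few calls were made. Pml, the scaffold of the nuclear bodies on which ATO acts, fell from 170, 119 and 140 CPM to 35.5, 50.5 and 35.1 CPM (-1.82, SE 0.28, adjusted p = 0.00493), and its partners Sp100 (-1.44, SE 0.29, adjusted p = 0.0134) and Daxx (-1.17, SE 0.28, adjusted p = 0.0251) fell too, 3 of 10 genes in that list. With both replicates 2 left out, 2 of the 10 rose and 4 fell. Pml and Sp100 are known to be induced by interferon. The fall of 25 of 41 interferon-stimulated genes stands beside theirs, and its part in their fall was not tested. The metallothioneins, which bind metals, did not pass by edgeR in the fit of 9 libraries: Mt2 had 5.55, 37.1 and 21.4 CPM in water and 159, 220 and 63.4 CPM in progressing tumours (2.79, SE 0.87, adjusted p = 0.0622). Mt2 did pass by DESeq2 (0.00504), by limma-voom (0.0424) and when the regressing libraries were dropped (0.0481). Its relative Mt1 had 11.8, 134 and 20.6 CPM against 163, 281 and 51.7 CPM (1.58, SE 0.94, adjusted p = 0.302). Hmox1, which degrades heme and is induced by arsenite in many cells, had 25.7, 177 and 21.5 CPM against 94.0, 106 and 41.9 CPM (0.11, SE 0.70, adjusted p = 0.942). Water replicate 2 held the highest Hmox1 level, and without it the log2 difference was 1.78 (adjusted p = 0.0235). None of 18 NRF2 antioxidant genes was called by edgeR, limma-voom or DESeq2, and 2 had an unadjusted p under 0.05. DESeq2 gave no adjusted p for Hmox1, which is 1 of these genes, so it left that gene undecided. With both replicates 2 left out, 1 rose and 1 fell. Of 9 genes of arsenic handling 2 fell (3 without both replicates 2), the channel Aqp9 and the reductase Gsto1, and each kept its call in at most 1 fit that left out a library.

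Stress genes gave a limited picture. Of 22 genes of the integrated stress and unfolded protein responses 5 fell and none rose (7 fell without both replicates 2), among them Mthfd2, a mitochondrial folate enzyme (-2.0, SE 0.32, adjusted p = 0.00516), and Pdia4, a chaperone of the endoplasmic reticulum (-2.22, SE 0.36, adjusted p = 0.00557). Pdia4 and several of its relatives are abundant in plasma cells, whose genes fell in 8 of 11 cases (9 without both replicates 2), Jchain from 317, 257 and 96.9 CPM to 5.92, 7.69 and 1.91 CPM (-5.43, SE 0.63, adjusted p = 0.00151). Of 17 heat shock genes 1 rose (1 rose and 3 fell without both replicates 2), the cochaperone Dnajb4 (2.39, SE 0.36, adjusted p = 0.00420), beside 4.77% of all genes. The mitochondrially encoded mt-Atp8 rose (3.87, SE 0.80, adjusted p = 0.0139). It alone passed of 13 mitochondrially encoded genes, but all 13 had a positive log2 difference, with a median of 0.97, beside the higher mitochondrial share of the progressing libraries. No gene was called among 50 ribosomal proteins, 31 proteasome subunits or 24 genes of cholesterol and fatty acid synthesis. At an unadjusted p under 0.05 the counts were 3, 1 and 2, limma-voom called none, and DESeq2 called 1, 0 and 1.

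Cell-cycle genes rose in 4 of 32 cases and fell in 1, with a median of 0.45, and without both replicates 2, 7 rose and none fell. Cenpf, a kinetochore protein, rose from 79.2, 56.4 and 50.4 CPM to 211, 129 and 168 CPM (1.45, SE 0.31, adjusted p = 0.0152) and Ccne2, a cyclin of the S-phase start, from 31.1, 30.4 and 30.1 CPM to 75.0, 87.3 and 63.5 CPM (1.30, SE 0.28, adjusted p = 0.0180). The related Ccne1 fell (-1.82, SE 0.46, adjusted p = 0.0314). The proliferation marker Mki67 had 681, 384 and 470 CPM in water and 936, 985 and 839 CPM in progressing tumours (0.85, SE 0.33, adjusted p = 0.121). Among repair genes 2 of 17 rose (3 without both replicates 2), both of the end-joining pathway that also closes receptor gene breaks: the ligase Lig4 from 9.67, 14.0 and 13.9 CPM to 138, 61.8 and 109 CPM (3.04, SE 0.39, adjusted p = 0.00221) and Xrcc6, the Ku70 subunit, from 103, 265 and 64.0 CPM to 877, 871 and 1576 CPM (2.94, SE 0.53, adjusted p = 0.00834).

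Of 541 long intergenic noncoding RNAs tested, 69 (12.8%) were higher and 33 (6.10%) lower. Of 14655 protein-coding genes, 689 (4.70%) were higher and 1114 (7.60%) lower, and the difference between these classes was not tested. Imprinted growth genes rose in 2 of 10 cases, and in 2 without both replicates 2. H19, a noncoding RNA of fetal growth, had 3.48, 2.06 and 5.87 CPM in water against 455, 3.72 and 30.1 CPM (5.41, SE 1.37, adjusted p = 0.0310), so the rise rested on progressing replicates 1 and 3, and its call was lost without progressing replicate 1 or any water library. Of 16 genes of DNA methylation and Polycomb 2 rose (2 rose and 2 fell without both replicates 2), beside 4.77% of all genes. They were the demethylase Tet1 (2.47, SE 0.69, adjusted p = 0.0436) and Bmi1 (1.25, SE 0.36, adjusted p = 0.0460), each with its call kept in 2 of 6 fits that left out a library. Y-linked genes were not called and varied between tumours, Ddx3y having 33.1, 82.4 and 90.4 CPM in water and 401, 216 and 12.3 CPM in progressing tumours.

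Some genes were high in a single progressing tumour, with at least 50 CPM there and at least 20 times less in each of the other 8 W/W libraries. Progressing replicate 1 held 4 such protein-coding genes, replicate 2 held 2 and replicate 3 held 2. Grik1, a glutamate receptor subunit, had 171 CPM in replicate 1 and at most 2.21 CPM elsewhere. Ly6k, a surface protein best known from testis, had 417 CPM in replicate 2 (at most 18.4 elsewhere), and the same tumour held 54.5 CPM of Trim71, an RNA-binding ligase of embryonic cells. Ryr2, the calcium channel of heart muscle, had 151 CPM in replicate 3 and at most 3.69 CPM elsewhere. These describe single tumours and carry no test.

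Over the autosomes, the median log2 difference of all tested genes was highest on chromosome 13 (0.34) and lowest on chromosome 17 (-0.36). When only genes averaging 10 CPM or more were used, chromosome 12 (0.32) exceeded chromosome 13 (0.27). The Y chromosome (1.34 over 8 genes) and the mitochondrial genome (0.82 over 16 genes) lay above all autosomes, but not in every tumour. Measured from the mean of the water tumours, Y genes averaging 10 CPM or more had medians of 2.23, 1.78 and -2.83 in progressing tumours. In water tumours they had -0.77, 0.39 and 0.52. Mitochondrial genes had 0.98, 1.66 and -0.03 in progressing against -0.87, 1.15 and -0.32 in water tumours. On chromosome 17, 91 of 922 genes fell (9.87%) and 39 rose. Relative to the mean of the water tumours, genes of this chromosome with a mean of at least 10 CPM had medians of -0.25, -0.38 and -0.46 in the progressing tumours and 0.12, -0.08 and -0.07 in the water tumours. The regressing libraries were also below zero there, at -0.17, -0.14 and -0.20. On the X chromosome the progressing tumours, at -0.14, -0.29 and -0.42, likewise lay below the water tumours, at 0.20, -0.13 and -0.04. Leaving out the 185 genes between 33 and 38 Mb, which hold the MHC, gave a median of -0.30 over 737 genes, of which 57 fell (7.73%), with -0.22, -0.33 and -0.41 in the 3 tumours. On chromosome 13 the water tumours spread from -0.33 to 0.49 and so covered the progressing values of 0.20 to 0.41. Single tumours deviated elsewhere: chromosome 5 was at 0.31, -0.08 and 0.54, chromosome 10 at 0.36, -0.14 and -0.41 and chromosome 15 at -0.45, 0.35 and -0.09 in progressing replicates 1, 2 and 3. Copy number was not measured.

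**Figure D5:**
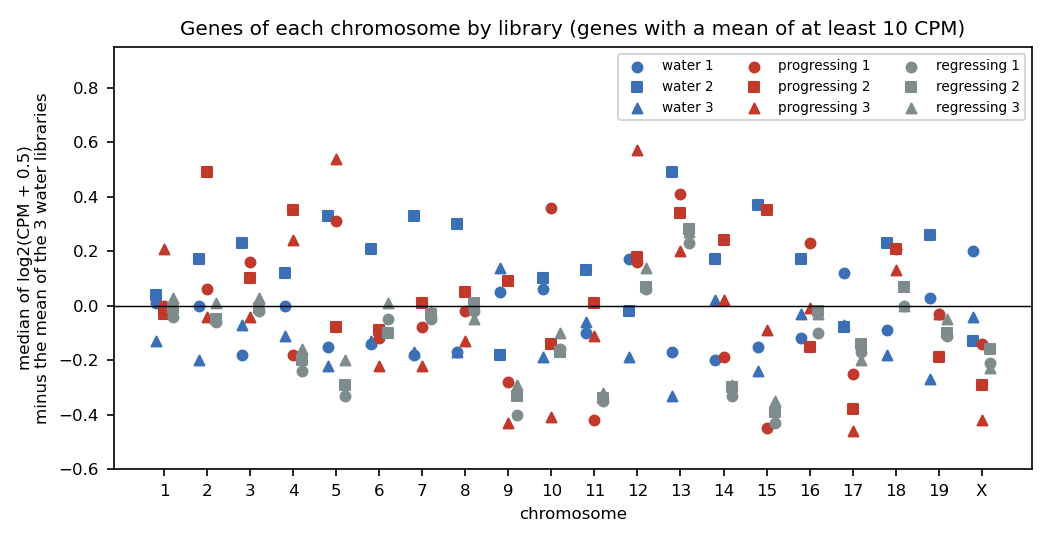
Median over the genes of each chromosome (horizontal axis) with a mean of at least 10 CPM of log2(CPM + 0.5) minus the mean of the 3 water libraries (vertical axis), 1 point per library. The 3 progressing points lie below the 3 water points on chromosome 17, at -0.25 to -0.46, while on chromosome 13 the water points range from -0.33 to 0.49.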

How the data were processed

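The authors deposited raw counts of reads per gene for the W/W thymus libraries, with no normalization, beside FPKM values, which were used only to check the totals. Per the submitters' processing notes, FastQC 0.10.1, cutadapt 1.9.1, HISAT2 2.0.1 and GRCm38 (mm10) were used. The counting program and its use of strand are not given in the sources used here. Per the labels' protocols, RNA was taken with TRIzol and libraries made with a SMARTer kit, and the same text describes a cell culture that does not match thymus. Gene start and end equalled GENCODE vM21 for 98.9% of genes.

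Counts were filtered with filterByExpr, scaled by TMM and tested with edgeR 4.0.16 (R 4.3.3) by its quasi-likelihood test, adjusted by Benjamini-Hochberg, in 1 fit of 9 libraries and 3 groups. A group with at most 3 counts in every library was treated as at the floor. Folds of the other group's mean against it are lower bounds on TMM-scaled sizes. Simulated data gave every gene its mean over the 9 libraries, then changed 100 genes by 2 and 100 by 4 on the log2 scale. Of these, 19 and 76 were recovered, with 3 false calls among 17589 genes. Far fewer genes were changed than the 2157 called in the real data, so these shares need not hold there. The fit had no replicate block. Deviations of same-numbered water and progressing libraries from their group means had correlations of 0.0334, 0.0813 and -0.00938.

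The comparison and the gene lists were chosen with earlier results of these data known, and lists are described by counts and medians without a test. Genes were named by a rule: 6 set genes, the 12 largest rises and falls and the 6 smallest adjusted p each way among protein-coding genes averaging 10 CPM or more in the higher group, no overlap and a call kept in 6 fits, up to 4 called genes per list and its defining members, with variable segments left out. Other genes named were chosen after their values were seen. Some genes that met the rule are not reported here. Promoters came from RefSeq (GRCm38.p6). Alternatives were RLE scaling, no filter, DESeq2 1.42.0, limma-voom 3.58.1, a replicate block, only the compared groups, and libraries left out. Intervals and floors cover counting error only.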

Additional observations from a re-analysis of the deposited data

How the results depend on the processing

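Of 141 named genes with a call, none changed direction under any alternative and 78 kept their call under all of them. The call was the same for 138 with DESeq2, 131 without both replicates 2, 128 with the replicate block, 116 with limma-voom and 106 with only the compared groups. Some of these genes were named because they kept their call in the 6 fits that left out a library, and others for a small adjusted p. Their counts therefore do not describe all called genes, of which 703 of 2157 kept the call in those 6 fits. The number of genes called was 2157, with 865 higher and 1292 lower. It was 882 (347 and 535) with only the compared groups, 3594 (1559 and 2035) without a filter, 3821 (1593 and 2228) with DESeq2 and 1405 (823 lower) with the replicate block. It is unknown whether same-numbered libraries were linked. Deviations of same-numbered water and progressing libraries correlated at 0.0334, 0.0813 and -0.00938, against -0.133 to 0.116 for differently numbered pairs. Values from so few pairs cannot exclude a link. Why calls were lost under the block was not tested. Leaving out 1 compared library gave 907 to 2557 genes called, 440 to 989 higher and 467 to 1568 lower. The lowest total came without progressing replicate 3 and the highest without water replicate 2. Leaving out 1 library gave 6 to 9 double-positive genes higher (11 with no filter), and among genes lower 4 to 9 for mature T cells, 10 to 17 for cytotoxic and NK cells, 11 to 18 for B cells (8 with limma-voom), 5 to 12 for thymic epithelium and 6 to 13 for MHC class I. Thymic epithelium had 5 with only the compared groups, 3 with limma-voom and 6 with the replicate block, and MHC class I had 7 with only the compared groups and 8 with the block. Interferon-stimulated genes stayed between 17 and 28 lower under every alternative. The median of chromosome 13 was 0.27 over genes averaging 10 CPM or more and 0.20 to 0.63 without 1 library, and that of chromosome 17 was -0.47 to -0.29. Hmox1, which was not called, ran from -0.34 to 1.78 without 1 library (1.54 without both replicates 2), at -0.31 and -0.34 without water replicates 1 and 3 and at -0.02 and -0.05 without progressing replicates 1 and 2. The cause of these changes was not tested. The part without the MHC genes of chromosome 17 was added after seeing the data. Changes of 2 on the log2 scale were mostly missed in simulation, but far fewer genes were changed there, so that share need not hold here. With 3 libraries a group, a gene without a call is not shown to be equal.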

Other observations

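Genes chosen after their values were seen added 2 groups. The Gimap genes, a cluster of lymphocyte survival GTPases on chromosome 6, fell in 7 of 8 tested cases, and 6 kept the call in each of the 6 leave-one-out fits. Gimap1, Gimap5 and Gimap7 each overlap another gene on the same strand and Gimap1 also 1 on the other strand, so their counts may be shared. Gimap8 had 221, 38.2 and 139 CPM in water and 5.67, 4.56 and 6.98 CPM in progressing tumours (-4.53, SE 0.58, edgeR adjusted p = 0.00213). Gimap6 was the exception, with 358, 222 and 222 CPM against 28.7, 228 and 120 CPM (-1.09, SE 0.58, adjusted p = 0.243).

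Progressing tumours also held transcripts best known from germ cells. All 7 genes looked at, Dazl, Spo11, Tdrd5, Tex15, Stra8, Brdt and Hfm1, were higher than in water and kept the call in all 6 fits, but since they were picked for being high this count is no test. Tex15, needed in spermatocytes, had 0.58, 3.21 and 0.37 CPM in water, 31.4, 236 and 132 CPM in progressing tumours and 0.804 to 0.918 CPM in regressing libraries (6.60, SE 0.97, adjusted p = 0.00376 against water and 7.26, adjusted p = 0.00856 against regressing). Stra8, a meiotic entry gene, had a log2 difference of 4.13 (SE 0.72, adjusted p = 0.00770) against water and 3.78 (adjusted p = 0.0155) against regressing libraries. Spo11, which cuts DNA in meiosis, had 114 to 264 CPM in regressing libraries, 93.9 to 199 CPM in progressing ones and 1.07 to 5.61 CPM in water. Tdrd5 had 58.2 to 125 CPM in regressing libraries and 31.5 to 82.4 CPM in progressing ones. Brdt had 10.7 to 17.1 CPM against 16.9 to 25.8 CPM. Hfm1 did not pass against regressing libraries (2.90, edgeR adjusted p = 0.0643). Dazl, Tex15 and Stra8 were thus high in progressing tumours alone among the 3 groups, whereas Spo11, Tdrd5 and Brdt were low in water alone.

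Nr3c1, the glucocorticoid receptor through which steroids kill immature thymocytes, was also picked after its values were seen. It had 94.9, 104 and 91.1 CPM in water and 343, 496 and 312 CPM in progressing tumours (1.99, SE 0.31, adjusted p = 0.00487), and 254 to 397 CPM in regressing libraries.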
